A study of Mus musculus with 2 samples.

Results

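The integrated stress response and the unfolded protein response were followed across 39 named genes in the inguinal fat pad, a subcutaneous white adipose depot. The genes were taken from a list of names, drawn up with earlier results of these data known, and fell into 6 arms: regulators and effectors of the integrated stress response, secreted stress hormones, enzymes of serine, one-carbon and amino acid synthesis, amino acid transporters, cytosolic tRNA synthetases, and genes of endoplasmic reticulum stress. Of the 39, 36 were measured by a probe set with 1 gene name, out of 19938 named genes. Aars has a probe set that is annotated to a second gene as well and was not used, and Gdf15 and Pycr1 were not analysed here. Each of the 36 genes had 1 probe set.

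The samples were 2 Affymetrix arrays, 1 labelled DKO and 1 labelled ApoE-KO. The DKO mice were Ucp1-/-;ApoE-/- and lacked apolipoprotein E together with uncoupling protein 1, the carrier that lets thermogenic adipocytes turn fuel into heat. The ApoE-KO littermates lacked apolipoprotein E alone, so both groups carried that deletion. All were males on the C57BL/6J background, were kept at 23 °C, and ate a high-fat diet for 9 weeks from 9 weeks of age. Each array received RNA pooled from 3 mice. There is thus 1 array per genotype, the spread between mice was not measured, no test is possible and no difference below has a replicate check. The number of arrays limits the precision.

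Ucp1 signal was 2230 in the DKO-labelled array and 219 in the ApoE-KO-labelled array, which goes against the label if its probes read the disrupted part of the gene. The probe positions were not used here, so the arrays are called by their labels and every direction rests on those labels. Apoe signal was 502 in the DKO-labelled array and 589 in the ApoE-KO-labelled array. Of 10 general adipocyte markers, 9 were measured and all 9 lay above the expression floor, with median intensities of 5228 in the DKO-labelled array and 5070 in the ApoE-KO-labelled array. Skeletal muscle markers stood apart: all 20 were lower in the DKO-labelled array, with summed intensities of 3858 there, against 47171 in the ApoE-KO-labelled array. The 10 B cell markers summed to 3667 in the DKO-labelled array, against 7304 in the ApoE-KO-labelled array, and the 8 plasma cell markers to 1463 in the DKO-labelled array, against 2098 in the ApoE-KO-labelled array. The 11 macrophage markers summed to 8847 in the DKO-labelled array, against 12887 in the ApoE-KO-labelled array, and the 9 fibroblast and progenitor markers to 19263 in the DKO-labelled array, against 29203 in the ApoE-KO-labelled array. The sums of 10 brown and beige adipocyte markers were 22892 in the DKO-labelled array and 3571 in the ApoE-KO-labelled array. No intensity was 0, and the part of these cell types in the results below was not tested. In bulk tissue, fewer cells of a type and less RNA per cell cannot be told apart.

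The integrated stress response converges on phosphorylation of the translation factor eIF2, which slows protein synthesis in general while allowing translation of ATF4. ATF4, with C/EBP partners, then raises transcription of genes for amino acid supply, tRNA charging and feedback control. One of the eIF2 kinases, PERK, senses misfolded protein in the endoplasmic reticulum and belongs also to the unfolded protein response, whose other sensors, IRE1 and ATF6, raise chaperones and degradation factors of that organelle. Mitochondrial stress can reach ATF4 through another eIF2 kinase, HRI, as shown in human cells.

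Differences are log2 intensities of the DKO-labelled minus the ApoE-KO-labelled array. The expression floor, a mean intensity of 196.9, is the median over named probe sets and not a detection limit. Of the 36 measured genes, 34 lay above it, and Fgf21 and Slc7a11 lay below. Over the 34, 8 were at least 1.5-fold higher in the DKO-labelled array, where 7.57% of the 9891 genes above the floor were so. The count was 5 with an offset of 50 added to the intensities and 5 with the floor raised to percentile 75. None of them was at least 1.5-fold lower (0 of 34), against 3.73% of all genes. At the 2-fold limit the counts were 0 higher and 0 lower, against 2.79% and 0.698% of all genes. The 8 genes were Trib3, Cebpb, Dnajb9, Gars, Atf3, Asns, Mthfd2 and Wars, and they came from 4 arms. Of the 36 genes, 24 had a difference above 0, and the median difference was 0.23, against a median of -0.011 over all genes above the floor. The middle 50% of all genes lay between -0.19 and 0.20, and 17 of the 34 lay above that upper limit. As a scale for measurement error, in 576 genes with at least 2 probe sets above the floor the 2 brightest differed from each other by a median of 0.070 in the difference between arrays, and by at most 0.27 in 90% of the genes. This gap does not include the spread between mice or between arrays.

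**Figure D1:**
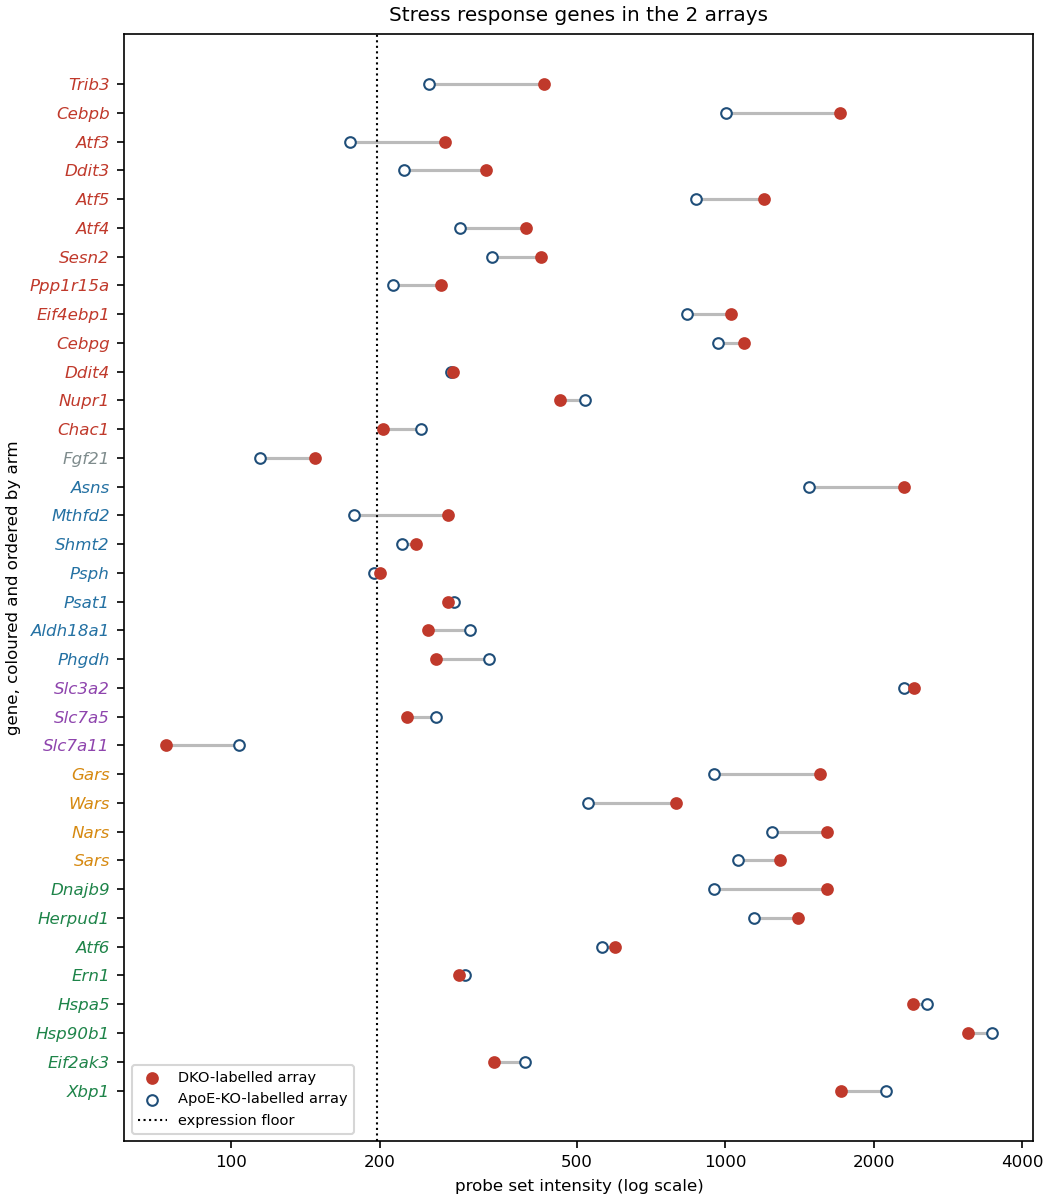
Intensity of each of the 36 measured genes (log axis) in the DKO-labelled array (filled) and the ApoE-KO-labelled array (open), 1 array each, with genes coloured and ordered by arm and the floor of 196.9 dotted. In the topmost arm 11 of 13 genes have the filled point to the right, whereas in the endoplasmic reticulum arm at the bottom 3 of 8 do.

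The transcription factors and effectors of the integrated stress response were higher as a group by small amounts. All 13 were measured above the floor, 11 had a difference above 0 and 3 were at least 1.5-fold higher, with a median of 0.33. The range ran from -0.25 to 0.77. Among all genes above the floor, 48.2% had a difference above 0 and 7.57% were at least 1.5-fold higher.

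Trib3, a pseudokinase induced by ATF4 that restrains the response, had the largest difference of the 36, with an intensity of 429 in the DKO-labelled array and 252 in the ApoE-KO-labelled array, a difference of 0.77 or 1.71-fold. It exceeded 95.1% of the genes above the floor. Cebpb, a leucine zipper factor that pairs with ATF4 and also drives adipocyte differentiation, had intensities of 1704 in the DKO-labelled array and 1004 in the ApoE-KO-labelled array, a difference of 0.76. Atf3, a stress-induced factor of the same family, had 271 in the DKO-labelled array and 174 in the ApoE-KO-labelled array, a difference of 0.64. The Atf3 value of the ApoE-KO-labelled array was under the floor, and replacing it by the floor gave a difference of 0.46, under 1.5-fold.

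Ddit3, which encodes CHOP, came just short of 1.5-fold, with 328 in the DKO-labelled array and 223 in the ApoE-KO-labelled array, a difference of 0.55. Atf5, a relative of ATF4 that is also known from mitochondrial stress, had 1199 in the DKO-labelled array and 871 in the ApoE-KO-labelled array (0.46). Atf4 itself had 395 in the DKO-labelled array and 291 in the ApoE-KO-labelled array (0.44). ATF4 is controlled largely at translation, which arrays do not read. Each of these 3 factors was thus higher by less than 1.5-fold.

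The differences of the next genes lay between 0.17 and 0.33. Sesn2, which restrains the growth kinase mTORC1, had 424 in the DKO-labelled array and 338 in the ApoE-KO-labelled array (0.33). Ppp1r15a, the GADD34 subunit that targets a phosphatase to eIF2, had 266 in the DKO-labelled array and 212 in the ApoE-KO-labelled array (0.33). Eif4ebp1, a repressor of cap-dependent translation, had 1026 in the DKO-labelled array and 835 in the ApoE-KO-labelled array (0.30). The C/EBP partner Cebpg, a transcription factor, stood at 0.17, with 1092 in the DKO-labelled array and 968 in the ApoE-KO-labelled array.

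Ddit4 lay close to 0, and Nupr1 and Chac1 lay below it. Ddit4, another mTORC1 inhibitor, had 280.5 in the DKO-labelled array and 278 in the ApoE-KO-labelled array, a difference of 0.012. Nupr1, a small stress-induced nuclear protein, had 462 in the DKO-labelled array and 521 in the ApoE-KO-labelled array (-0.17). Chac1, a glutathione-degrading enzyme that is a well known target of ATF4 and CHOP, had the lowest difference of the arm, with 203 in the DKO-labelled array and 242 in the ApoE-KO-labelled array (-0.25), which ranked above 19.0% of the genes above the floor. Fgf21, the 1 stress hormone measured, had 148 in the DKO-labelled array and 114 in the ApoE-KO-labelled array (0.37), both below the floor.

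These opposite signs occurred among genes whose promoters share the same letters. ATF4 and C/EBP factors bind a composite element known as CARE, searched here as TGATGNAAN on both strands in RefSeq promoter windows (GRCm38.p6) from 250 bases before to 50 after the start of a gene. Of the 39 genes, 34 had a window, and 11 of these (32.4%) held the letters, against 4.50% of 27025 genes. The 39 were listed as genes of these pathways, so a higher share can come from the choice of genes. The stretches below are shown because the differences of their genes have opposite signs. These signs are weakly measured. The differences of Chac1 and Nupr1 are smaller in size than the gap of 0.27 between probe sets given above, and Fgf21 lies below the floor. The letters are in capitals, positions count back from the start site, and all 4 genes carry them on the opposite strand, so that they read in reverse complement.
Atf3 (chr1:191183416-191183464, minus strand, letters from base -111): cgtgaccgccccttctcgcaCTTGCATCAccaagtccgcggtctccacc
Chac1 (chr2:119351028-119351076, plus strand, letters from base -194): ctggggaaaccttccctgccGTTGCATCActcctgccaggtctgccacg
Nupr1 (chr7:126625553-126625601, minus strand, letters from base -111): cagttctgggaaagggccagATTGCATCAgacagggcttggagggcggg
Fgf21 (chr7:45615602-45615650, minus strand, letters from base -140): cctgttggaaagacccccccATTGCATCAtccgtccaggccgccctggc

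The core ATTGCATCA was identical in Nupr1 and Fgf21. It also lay in the window of Aars and, on the other strand, in that of Pycr1, so it is not particular to that pair. Besides the genes shown above, those with the CARE letters were Trib3, Asns, Gars, Slc7a11, Herpud1, Aars and Pycr1. The 9 of the 11 that were measured had a median difference of 0.37, with Slc7a11 (-0.49) lowest and Trib3 (0.77) highest, against a median of 0.078 over 22 measured genes whose windows lack the letters. The middle value of the 9 was that of Fgf21, and without Fgf21 and Slc7a11, which lie below the floor, the median over 7 genes was 0.64. Across all genes above the floor with a window, 9.17% of 218 genes with the letters were at least 1.5-fold higher, against 7.83% of 7716 genes without them, and the medians were -0.004 with the letters and -0.003 without. A match of letters is a description of the window and not a binding site.

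**Figure D2:**
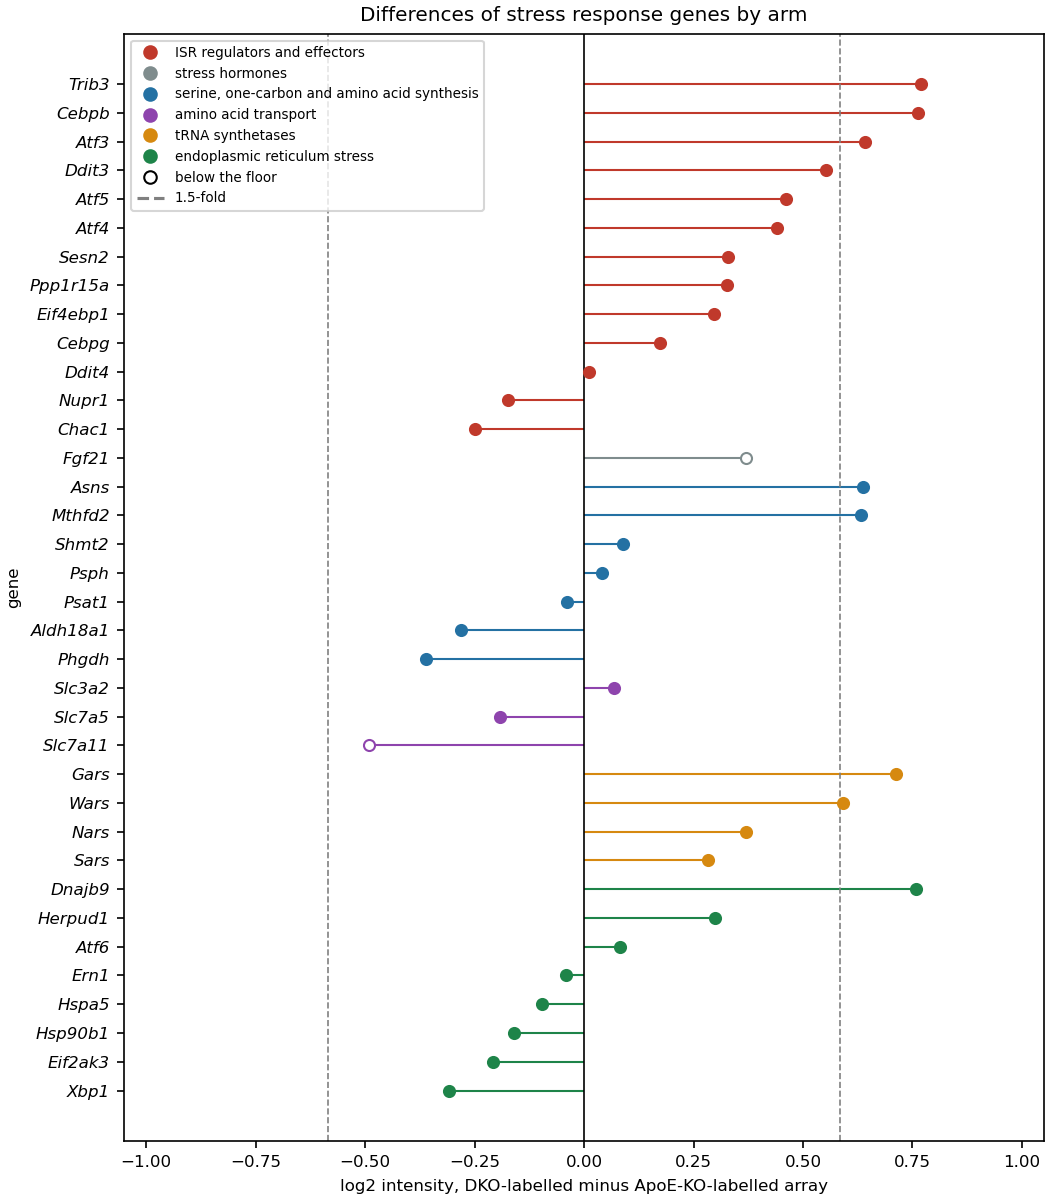
Log2 difference of each of the 36 measured genes, DKO-labelled minus ApoE-KO-labelled array, coloured by arm, with open points for genes below the floor and dashed lines at 1.5-fold. The 4 tRNA synthetases all lie to the right of 0, while the synthesis, transport and endoplasmic reticulum arms spread to both sides.

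Genes of serine, one-carbon and amino acid synthesis divided within the arm. Of 8 listed, 7 were measured above the floor, with a median of 0.040 and a range from -0.36 to 0.64. A difference above 0 was found in 4 (5 under median centring or loess), against 48.2% of all genes above the floor. At least 1.5-fold higher were 2, against 7.57% of all genes. Asns, which makes asparagine, had an intensity of 2304 in the DKO-labelled array and 1481 in the ApoE-KO-labelled array, a difference of 0.64 or 1.56-fold. Mthfd2, a mitochondrial folate enzyme of the one-carbon pathway, had 274 in the DKO-labelled array and 177 in the ApoE-KO-labelled array (0.63). The Mthfd2 value of the ApoE-KO-labelled array was under the floor, and replacing it by the floor gave 0.48. Asns and Mthfd2 each exceeded 93.2% of the genes above the floor.

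The enzymes that supply serine did not share this difference. Phgdh, which starts serine synthesis from a glycolytic intermediate, had 259 in the DKO-labelled array and 333 in the ApoE-KO-labelled array (-0.36), the lowest value of the 34 genes above the floor. Psat1, which carries out the next step, had 275 in the DKO-labelled array and 282 in the ApoE-KO-labelled array (-0.040), and Psph, which completes the pathway, had 199.7 in the DKO-labelled array and 194 in the ApoE-KO-labelled array (0.040). Shmt2, which passes a carbon unit from serine to folate in mitochondria, had 236 in the DKO-labelled array and 222 in the ApoE-KO-labelled array (0.088). Aldh18a1, which starts proline synthesis, had 249.7 in the DKO-labelled array and 304 in the ApoE-KO-labelled array (-0.28).

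The promoter of Asns held the composite letters close to its start, and the stretch is shown because Asns had one of the 8 differences past 1.5-fold.
Asns (chr6:7693210-7693252, minus strand, letters from base -23): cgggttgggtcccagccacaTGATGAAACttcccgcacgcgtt
The windows of Phgdh, Psat1, Psph, Shmt2, Mthfd2 and Aldh18a1 did not hold the composite letters. That of Pycr1, which has no intensity here, did.

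Amino acid transporters were not higher as a group. The 3 listed genes had a median of -0.19, or -0.062 over the 2 above the floor. Slc3a2 and Slc7a5, those above the floor, stayed within 1.5-fold either way. Slc3a2, the heavy chain shared by several transporters, had 2411 in the DKO-labelled array and 2301 in the ApoE-KO-labelled array (0.068). Slc7a5, the light chain that pairs with it to carry large neutral amino acids, had 227 in the DKO-labelled array and 259 in the ApoE-KO-labelled array (-0.19). Slc7a11, the cystine importer that feeds glutathione synthesis, had 73.6 in the DKO-labelled array and 104 in the ApoE-KO-labelled array (-0.49), both below the floor, and with both set to the floor its difference was 0. Its promoter, shown because it holds the composite letters 2 times, carries them once on each strand.
Slc7a11 (chr3:50443633-50443699, minus strand, letters from bases -66 and -48): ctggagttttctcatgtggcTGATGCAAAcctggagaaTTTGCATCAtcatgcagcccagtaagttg

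The tRNA synthetases, which charge tRNAs with their amino acids, all differed in 1 direction. The 4 measured genes were higher in the DKO-labelled array, with a median of 0.48 and a range from 0.28 to 0.71. Of these, 2 were at least 1.5-fold higher, against 7.57% of all genes above the floor. Gars, for glycine, had 1556 in the DKO-labelled array and 949 in the ApoE-KO-labelled array (0.71 or 1.64-fold). Wars, for tryptophan, which interferon also induces, had 794 in the DKO-labelled array and 527 in the ApoE-KO-labelled array (0.59), just inside the limit of 1.5-fold and below it under quantile normalization (0.58) and with the offset (0.55). Nars, for asparagine, had 1609 in the DKO-labelled array and 1245 in the ApoE-KO-labelled array (0.37). Sars, for serine, had 1292 in the DKO-labelled array and 1062 in the ApoE-KO-labelled array (0.28). The stretch of the Gars promoter is shown because Gars had the largest difference of this arm.
Gars (chr6:55037950-55037998, plus strand, letters from base -31): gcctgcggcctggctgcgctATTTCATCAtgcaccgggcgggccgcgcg

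The remaining cytosolic synthetases lay on both sides of 0. Of 14 measured, 9 had a difference above 0, against 48.2% of all genes above the floor, and the median was 0.13. At the 1.5-fold limit 0 were higher and 0 lower, against 7.57% and 3.73% of all genes. The 14 ran from Vars at -0.40 to Yars at 0.36, with Qars at -0.32. Gars was the highest of the 18 measured synthetases that were listed here as cytosolic. Mitochondrial synthetases, which charge the tRNAs of the mitochondrial genome, had a median of 0.40 over 16 genes, 15 of them above 0. Of the 12 above the floor, 12 were above 0 and 2 at least 1.5-fold higher, against 48.2% and 7.57% of all genes. These 2 were Fars2 (555 in the DKO-labelled array and 299 in the ApoE-KO-labelled array, 0.89) and Rars2 (0.60). Sars2 came next (0.56). This count of 2 was 4 under median centring, 1 with the offset and 0 with the floor at percentile 75.

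Genes of endoplasmic reticulum stress were not higher as a group. All 8 were measured above the floor, and 3 had a difference above 0 (4 under median centring or loess), against 48.2% of all genes. Only 1 was at least 1.5-fold higher, against 7.57% of all genes. The median was -0.068, the mean 0.041, and the range ran from -0.31 to 0.76. The sensors differed little. Eif2ak3, which encodes PERK, had 341 in the DKO-labelled array and 394 in the ApoE-KO-labelled array (-0.21). Ern1, which encodes IRE1, had 289 in the DKO-labelled array and 297 in the ApoE-KO-labelled array (-0.042). Atf6 had 597 in the DKO-labelled array and 564 in the ApoE-KO-labelled array (0.082).

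Xbp1, the factor whose mRNA IRE1 splices, had 1714 in the DKO-labelled array and 2121 in the ApoE-KO-labelled array (-0.31), the lowest of this arm. The intensity does not separate spliced from unspliced mRNA. Plasma cells carry high levels of Xbp1. All 8 plasma cell markers were lower in the DKO-labelled array, with a median of -0.33, but 6 of them lay below the floor. The 2 above it had a median of -0.78. The part of plasma cells in the Xbp1 difference was not tested. The main chaperone Hspa5, known as BiP, had 2405 in the DKO-labelled array and 2568 in the ApoE-KO-labelled array (-0.095). Hsp90b1, the abundant chaperone of this organelle known as GRP94, had 3107 in the DKO-labelled array and 3472 in the ApoE-KO-labelled array (-0.16).

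In the other direction, Dnajb9, a co-chaperone of BiP and a known target of XBP1, had 1605 in the DKO-labelled array and 949 in the ApoE-KO-labelled array (0.76 or 1.69-fold), larger than in 94.9% of the genes above the floor. Herpud1, a membrane protein of endoplasmic reticulum-associated degradation, had 1407 in the DKO-labelled array and 1144 in the ApoE-KO-labelled array (0.30). Dnajb9 and Xbp1 thus stood at opposite ends of the arm.

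The promoters of this arm are shown because Herpud1 joins letters of both pathways whereas the chaperones carry those of the unfolded protein response. ATF6 and XBP1 act through ERSE, searched as CCAAT and CCACG separated by 9 bases, and ERSE-II, searched as ATTGG and CCACG separated by 1 base, both on either strand. ERSE letters lay in the windows of Hspa5 and Hsp90b1, 2 of the 34 genes, against 0.137% of all genes. ERSE-II letters lay in Herpud1 alone among the 34, against 0.0444% of all genes. Because the 34 were listed as genes of these pathways, a share above that of all genes can come from that choice. Letters of UPRE, another XBP1 element searched as TGACGTGG on both strands, were in 0 of the 34 windows and in 0.714% of all genes. In Herpud1 the first run of capitals is the CARE letters and the second is ERSE-II.
Herpud1 (chr8:94386296-94386407, plus strand, letters from bases -113 and -52): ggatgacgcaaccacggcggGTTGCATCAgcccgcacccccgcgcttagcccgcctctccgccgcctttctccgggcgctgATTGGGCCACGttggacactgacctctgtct
Hspa5 (chr2:34772005-34772063, plus strand, letters from base -65): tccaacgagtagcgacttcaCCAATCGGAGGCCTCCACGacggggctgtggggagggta
Hsp90b1 (chr10:86705513-86705676, minus strand, letters from bases -212 and -107): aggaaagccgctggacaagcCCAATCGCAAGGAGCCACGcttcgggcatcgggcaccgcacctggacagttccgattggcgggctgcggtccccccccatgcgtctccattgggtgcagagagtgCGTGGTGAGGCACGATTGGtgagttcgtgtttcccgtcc

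Herpud1, with both kinds of letters, stood at 0.30, while Hspa5 and Hsp90b1, with ERSE letters and without the CARE letters, stood at -0.095 and -0.16. Dnajb9, the highest of the arm at 0.76, held none of the CARE, ERSE, ERSE-II or UPRE letters in its window. Whether the letters have a part in these differences was not tested. Across all 14 genes above the floor with ERSE letters the median was -0.092, against -0.003 over the 7920 others with a window, whereas 14.3% of the 14 were at least 1.5-fold higher, against 7.85% of the others.

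Set side by side, the medians were 0.48 for the synthetases, 0.33 for the regulators and effectors, 0.040 for the synthesis enzymes, -0.068 for the endoplasmic reticulum genes and -0.19 for the transporters. The ranges of the members overlapped between all of these arms except the synthetases and the transporters. With 1 array per genotype, the difference between arms could not be tested.

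**Figure D3:**
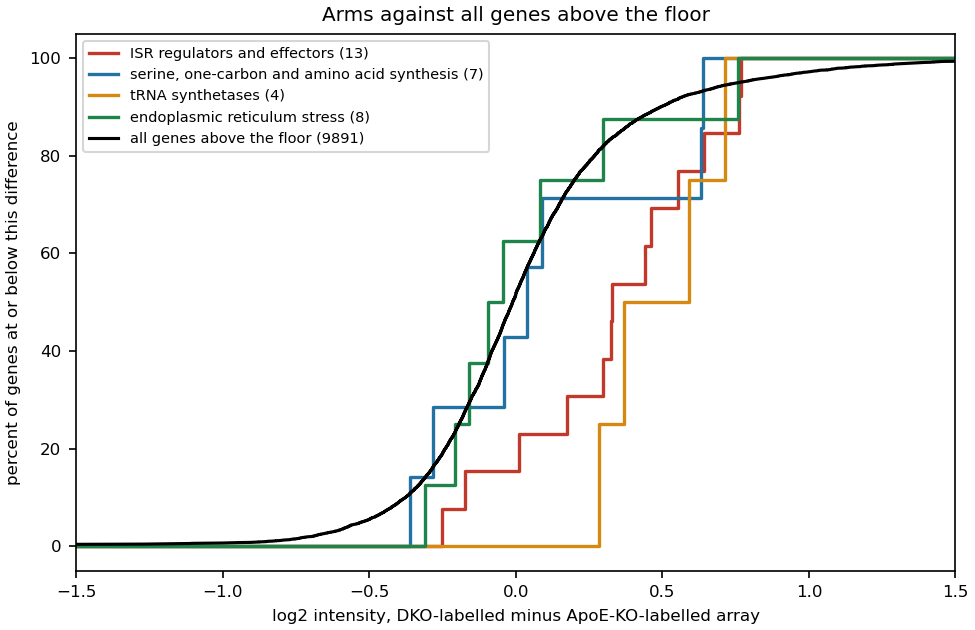
Cumulative share of genes (percent) at or below each log2 difference, DKO-labelled minus ApoE-KO-labelled array, for 4 arms and for all 9891 genes above the floor. The curves of the regulators and of the 4 synthetases run to the right of all genes except at the top. They end at 0.77 and 0.71, values that exceed 95.1% and 94.5% of all genes. The curve of the 8 endoplasmic reticulum genes lies to the left of all genes around its median of -0.068.

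Gene lists around these arms were read in the same way. They were written with earlier results of these data known, and some genes are in more than 1 of them. Endoplasmic reticulum chaperones and folding enzymes, such as calreticulin, calnexin and the disulphide isomerases, had a median of -0.092 over 16 genes, of which 5 were above 0. Among all genes above the floor 48.2% were above 0. Of the 16, 1 was at least 1.5-fold higher, against 7.57% of all genes. This was Ero1l, an oxidase that drives disulphide formation and responds to hypoxia (753 in the DKO-labelled array and 441 in the ApoE-KO-labelled array, 0.77). Its paralogue Ero1lb stood at -0.51 and the disulphide isomerase gene Pdia4 at -0.44. Genes of endoplasmic reticulum-associated degradation had a median of 0.019 over 14 genes and 0 past 1.5-fold, with Ubxn4 (0.39), Os9 (-0.27) and Derl1 (0.16) as the largest. Membrane-bound factors of the ATF6 and CREB3 families and their proteases had a median of -0.036 over 7 genes (0.016 under median centring, and -0.15 over the 5 above the floor), with Creb3l1, a regulator of collagen secretion, at -0.57, Creb3 at 0.20 and Creb3l2 at -0.16.

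Mitochondrial chaperones and proteases had the largest median of the 10 lists. The median was 0.78, and 11 of 12 genes were above 0, against 48.2% of all genes above the floor. Of the 12, 10 were at least 1.5-fold higher and 4 at least 2-fold higher, against 7.57% and 2.79% of all genes. Dnaja3, a mitochondrial co-chaperone, had 1304 in the DKO-labelled array and 532 in the ApoE-KO-labelled array (1.29). The protease gene Afg3l2 and the chaperone gene Hspa9 both stood at 1.18. The cytosolic heat shock list had a median of 0.11 over 9 genes and 0 past 1.5-fold, with the co-chaperone gene Bag3 at 0.49, the small heat shock gene Cryab, which muscle expresses strongly, at -0.49, and Hspb1 at 0.39.

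Other ATF4 targets had a median of 0.034 over 20 genes, of which 10 were above 0, against 48.2% of all genes above the floor. Over the 16 targets above the floor the median was -0.007. Among those 16, 3 passed 1.5-fold upward and 0 downward, where 7.57% and 3.73% of all genes did so. These were Lonp1, a mitochondrial protease (1165 in the DKO-labelled array and 570 in the ApoE-KO-labelled array, 1.03), Shmt1, the cytosolic counterpart of Shmt2 (302 in the DKO-labelled array and 167 in the ApoE-KO-labelled array, 0.86, or 0.62 once the lower value is set to the floor), and Vldlr, a lipoprotein receptor (2121 in the DKO-labelled array and 1176 in the ApoE-KO-labelled array, 0.85). Other folate and one-carbon enzymes had a median of 0.076 over 14 genes, or 0.18 over the 9 above the floor. Among those 9, 2 passed 1.5-fold upward, Shmt1 and Gcsh, and 0 did with the floor at percentile 75. Gcsh, a mitochondrial protein of glycine cleavage, also passed 2-fold (527 in the DKO-labelled array and 250.2 in the ApoE-KO-labelled array, 1.07), whereas the methionine synthase gene Mtr stood at -0.42. The kinases and translation factors upstream of ATF4 had a median of 0.093 over 14 genes. Of the 13 above the floor, 1 was at least 1.5-fold higher, against 7.57% of all genes above the floor. This was Eif2b1, a subunit of the exchange factor that phosphorylated eIF2 inhibits (0.64). Ppp1r15b, another eIF2 phosphatase subunit (0.56), and Eif2b3 (0.53) came next. The other probe set of Ppp1r15b gave 0.19. The count of 1 was 2 under median centring and 0 with the offset or the floor at percentile 75.

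**Figure D4:**
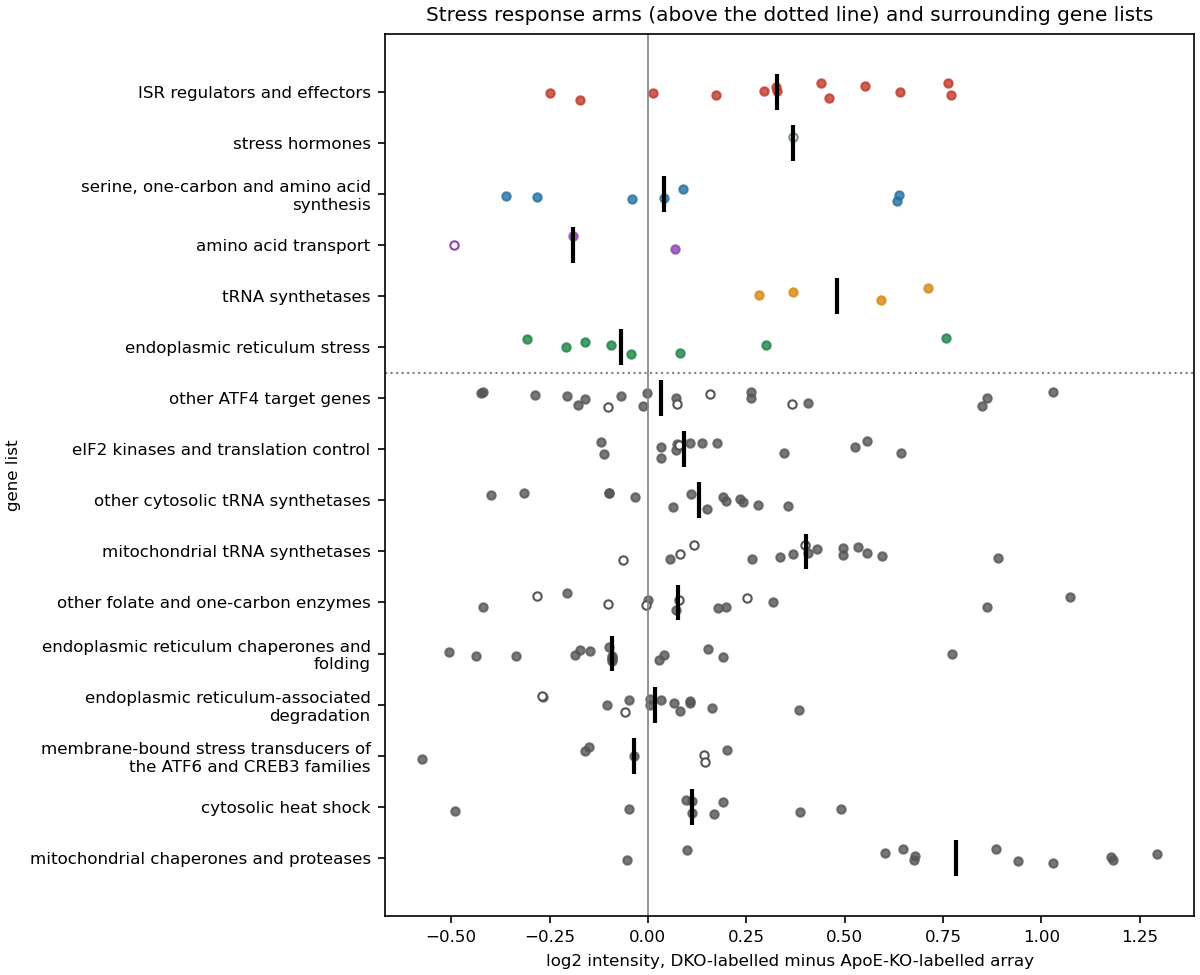
Log2 differences of single genes, DKO-labelled minus ApoE-KO-labelled array, for the 6 arms and 10 surrounding gene lists, with a black bar at the median of all measured genes of a list and open points for genes below the floor; vertical scatter within a list has no meaning. The mitochondrial chaperones and proteases have a median of 0.78 and the endoplasmic reticulum chaperones one of -0.092.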

How the data were processed

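Total RNA was extracted with Trizol, per the labels' protocols, and labelled for Affymetrix arrays. The authors deposited a linear intensity for each of 35557 probe sets and both arrays, ranging from 3.55 to 23635.65, with array medians of 152.1 (DKO) and 157.65 (ApoE-KO). How the background was corrected, probes were summarised and arrays were scaled is not stated in the labels or the file. The deposited table has no detection calls, so low intensities were not told apart from background. Log2 was taken with no offset. Gene names came from the platform annotation: 21789 had 1 gene, 1621 had several and 12147 were unnamed here. Of the named ones, 21698 matched RefSeq by Entrez identifier. The probe set with the highest mean represented a gene.

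Genes above the floor were counted at 1.5-fold and 2-fold, with no test. The members, lists and limits were chosen with earlier results of these data known. All 39 genes are accounted for. From each surrounding list, up to 3 genes above the floor with the largest absolute difference are named. The calculation was tested on simulated data, with changes larger than that of any member. That test does not cover differences near 1.5-fold. Alternatives were quantile normalization, median centring, loess with a span of 0.4, an offset of 50, the mean of probe sets, no floor, a floor at percentile 75, and values below the floor set to it. Python 3.11.15 with numpy, pandas and statsmodels was used.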

Additional observations from a re-analysis of the deposited data

How the results depend on the processing

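In the main setting 8 genes were at least 1.5-fold higher, and this number became 5 with an offset of 50, which brings Atf3, Mthfd2 and Wars under the limit, and 5 with the floor at percentile 75, which leaves out Trib3, Atf3 and Mthfd2. It was 7 under quantile normalization, without Wars, 9 under median centring and loess, with Ddit3 added, and 6 with values below the floor set to the floor. Cebpb, Asns, Gars and Dnajb9 stayed past 1.5-fold under all 8 alternatives. The counts of 0 lower at 1.5-fold and 0 past 2-fold did not move under these 8. The offset, the mean of probe sets, the floor at percentile 75 and values set to the floor could not have raised a count of 0. The Fgf21 value, the 1 gene of the hormone arm, was 0.27 with the offset and 0 with lower values set to the floor. The transporter median became 0 in that setting and -0.062 over genes above the floor, and that of the endoplasmic reticulum genes was 0.041 as a mean. The synthetase and regulator medians moved by under 0.1 under every alternative run. Under the 5 alternatives that can move a single gene's difference, 171 of 180 values moved by less than 0.1 and 9 by more. Of 160 counts in the surrounding lists, 7 moved by over 1.5 times. Psat1 and Ern1, close to 0, changed sign. The median of all genes above the floor lay between -0.015 (no floor) and 0.041 (median centring) under the 8. With the shorter letters TGATG 15 of the 34 windows matched, against 42.9% of all genes, and with CCACG 25 matched, against 35.5%. No paired analysis was possible because each genotype has 1 array. The cause of the shifts under quantile normalization, centring, loess and the offset was not tested. The 1 array per genotype limits every value.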
